A study of Mus musculus with 2 samples.

Results

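The cells described here were the barcodes that the authors labelled Myoblasts/Progenitors in mouse muscle 7 days after injury. They were selected by this label in the deposited cell annotation, which holds 177 such barcodes among 3385 with a cell type at day 7 and 6879 in both libraries together. A floor of 750 detected genes and 1000 transcripts, with mitochondrial RNA capped at 30%, left 175, or 5.48% of the 3196 typed barcodes kept at day 7 (95% exact binomial interval 4.71 to 6.32%). The day 2 library held 1 such barcode among 3178. That barcode had 1693 counts, and Myod1, Myog, Des, Megf10, Pax7, Myf5, Tmem8c and Gm7325 were all at 0 in it, so no comparison between days was made.

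The series consists of 1 library per time point, made with 10x Genomics Chromium 3' v3 chemistry from dissociated whole tibialis anterior muscle, collected 2 or 7 days after an injection of notexin, a snake venom phospholipase that destroys muscle fibres. The mice were C57Bl/6 in the sample labels and C57BL/6J in the cell annotation, with 1 mouse per library and no other treatment or genotype named. The labels give both mice as 7 months old and female, whereas the annotation gives them as male, and gives 4 months for the day 2 mouse. Counts of Y-linked genes were 6575 at day 2 and 4856 at day 7, against 5 and 1 of Xist. The day 7 library held 4889 barcodes called as cells with 32356088 transcript counts (unique molecular identifiers), and the day 2 library 4836 with 41123913. The libraries shared 4 called barcodes, none of them a member. With 1 mouse at each time point, cells are not replicates and no test between conditions exists. All intervals below are 95% and cover counting error only. The cell labels were made from the same expression values, so that differences between labels are descriptions.

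Skeletal muscle is repaired by muscle stem cells (MuSCs), which lie along the fibre and are marked by the transcription factor Pax7. After injury they activate and divide as myoblasts that carry Myf5 and Myod1, then turn on Myog, leave the cell cycle and fuse through the membrane proteins myomaker (Mymk) and myomixer (Mymx). New fibres first make embryonic and neonatal forms of the contractile proteins, and replace them with adult forms as they mature. In the gene table Mymk is listed as Tmem8c and Mymx as Gm7325.

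The label held 3 sets of barcodes that differed widely in what they transcribed. Adult sarcomere genes (30 listed genes for the contractile apparatus, such as Acta1, Ckm and Mylpf) made up less than 1% of counts in 116 members and 10% or more in 54, with only 5 members between. A separate count of Myog, Tmem8c and Gm7325 together, called commitment counts here, divided the rest. Below 10% sarcomere share, 82 members had 0 commitment counts (uncommitted), 11 had 1, and 28 had at least 2 (committed). The 54 members at or above 10% are called fibre-transcript-rich. These limits were set after the values were seen and mark ranges, not cell types. Only 3 members lay between 5 and 20% sarcomere share. The lowest values inside the limit were 10.5, 10.7 and 24.5%, and the highest outside it were 7.62, 1.63 and 1.49%. The commitment limit was less sharp, with 23 of the 175 members at 1 to 3 counts.

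**Figure D1:**
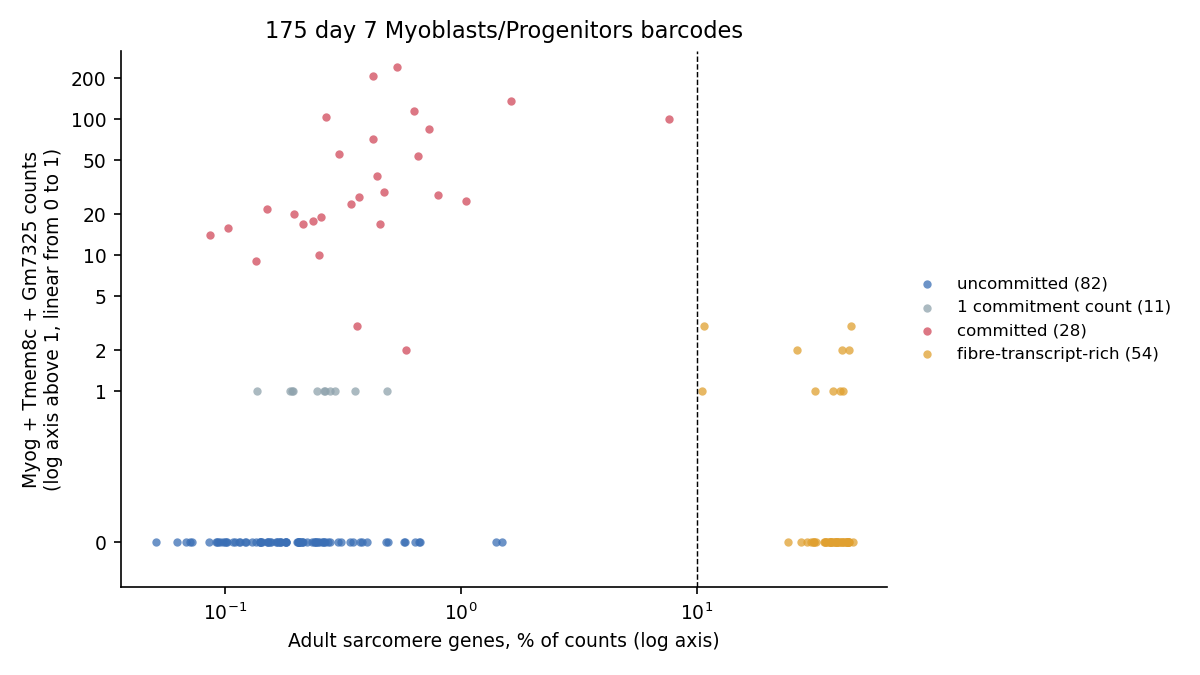
Each point is 1 of the 175 kept barcodes, placed by the share of its counts in adult sarcomere genes (log axis, %) and by its summed counts of Myog, Tmem8c and Gm7325. The dashed line is the 10% limit: 54 barcodes lie to its right with at most 3 commitment counts, and the 28 committed barcodes to its left reach 244.

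Members held a median of 10076 counts (2670 to 154154) and 2824 genes. Uncommitted members had a median of 9803.5 counts, committed members 12343 and fibre-transcript-rich members 9098.5, but the last had a median of only 1714 genes. Fibre-transcript-rich members supplied 39.6% of all member counts, and 2 of them, with 154154 and 119433 counts, were the only members above 100000. The labels against which they were compared were MuSCs (137 of 139 barcodes kept, median 4787 counts), both myonuclei labels, type IIb and type IIx (96 barcodes kept, of 162 and 39, median 3631), and endothelial labels as cells that should lack myogenic genes (333 kept, median 4217). RNA outside cells was measured in barcodes with 1 to 100 counts and is called free RNA.

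The marker genes given for the label were found in it, but not evenly. Desmin (Des), the intermediate filament of muscle cells, had a count in 170 of 175 members, Megf10, a receptor of myogenic cells, in 78, Myod1 in 63 and Myog in 40. In endothelial barcodes Myod1 and Megf10 were at 0 of 333, Myog was in 1 and Des in 33. In fibre-transcript-rich members the given markers were divided. Megf10 was found in 0 of 54, which allows a share of barcodes with a count, not of barcodes expressing the gene, of up to 5.56%, and Myog in 4, while Myod1 was found in 13 and stood at 44.8 counts per 1000000 counts (CPM, a gene's summed count scaled to the same total in every group), against 59.1 in uncommitted members and 8.81 in myonuclei. Of the stem cell genes, Pax7 was found in 0 of 54 and Myf5 in 1. The Des level of fibre-transcript-rich members, 4670 CPM (interval 4536 to 4807), was close to the 4727 CPM of myonuclei, and above the 661 of uncommitted and 997 of committed members.

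Pax7 and Myog divided the members below 10% sarcomere share. Of these 121 barcodes, 82 held Pax7 without Myog, 23 Myog without Pax7, 13 both and 3 neither. Pax7 stood at 368 CPM (329 to 409) in uncommitted members, 320 in those with 1 commitment count and 97.2 (70.4 to 131) in committed members, with 474 (426 to 526) in MuSCs. With each barcode thinned to 2000 counts, Pax7 was seen in 40 of 82 uncommitted and 4 of 28 committed members and in 86 of 132 MuSCs (without thinning, 79 of 82, 7 of 28 and 121 of 137). Pax7 was thus below the MuSC level in every range of the label, and the uncommitted and MuSC intervals did not overlap. Myf5, the activation factor, was at 254 CPM in uncommitted and 118 in committed members. Myod1 ran the other way, at 59.1 CPM (44.4 to 77.1) in uncommitted members, 234 in those with 1 commitment count and 418 (360 to 483) in committed members.

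**Figure D2:**
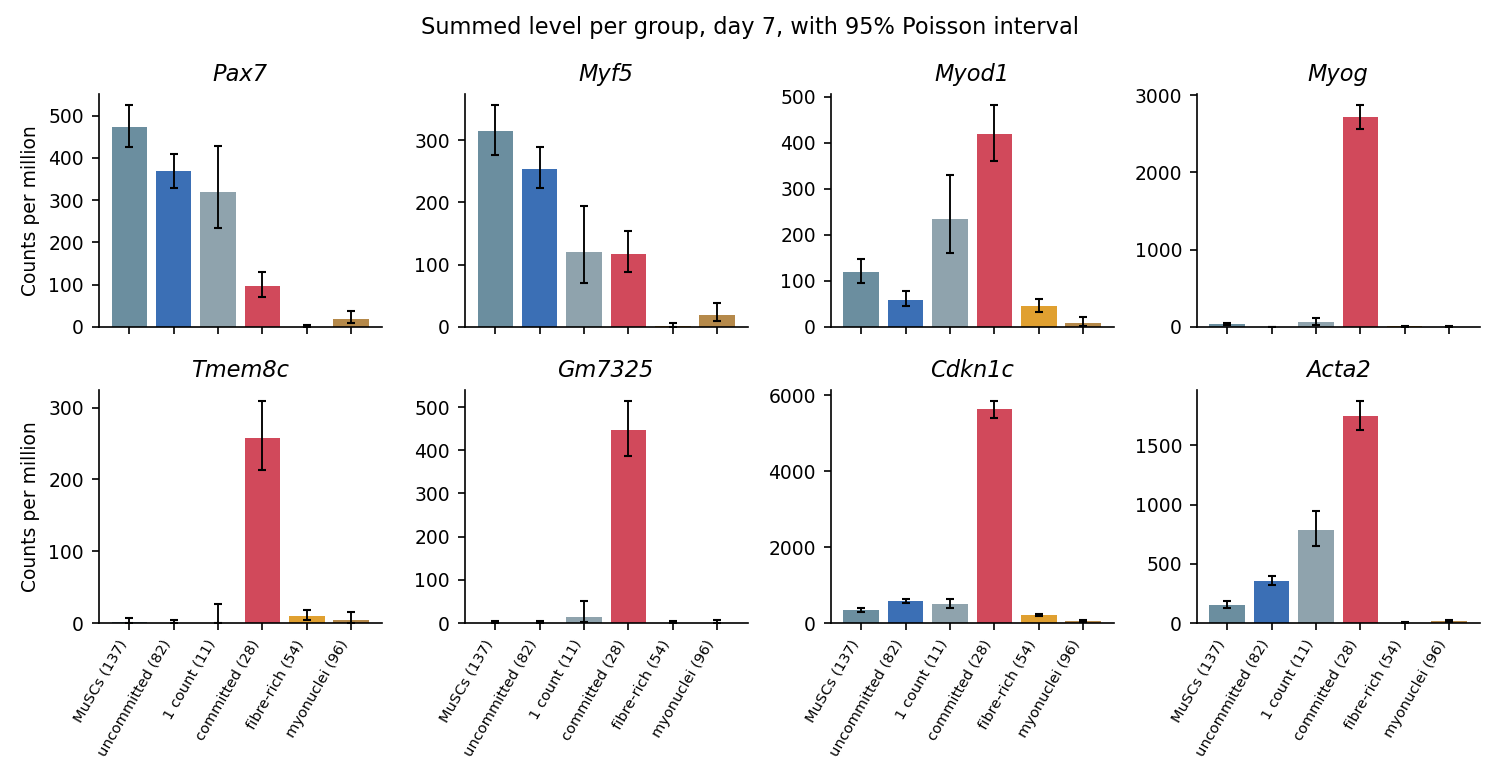
Summed level in CPM of 8 myogenic genes in MuSCs, the 4 ranges of the Myoblasts/Progenitors label and both myonuclei labels at day 7, with 95% Poisson intervals and the number of barcodes in brackets. Myog, Tmem8c and Gm7325 chose the committed range, and Pax7, Myf5, Myod1, Cdkn1c and Acta2 did not; Cdkn1c reached 5633 in committed against 576 in uncommitted barcodes.

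At least 2 commitment counts were found in 33 of 175 members, or 18.9% (13.4 to 25.5%): the 28 committed members and 5 of the fibre-transcript-rich ones. The same held for 2 of 137 MuSCs, 0 of 96 myonuclei and 0 of 333 endothelial barcodes. After thinning to 2000 counts, 12.6% of members had at least 2, with 22 of 28 committed and 0 of 54 fibre-transcript-rich members. Commitment counts in the 28 committed members ranged from 2 to 244, with a median of 26. All 3 genes were detected in 15 of them, 2 in 9 and 1 in 4. Myog had up to 196 counts in a barcode, Tmem8c up to 22 and Gm7325 up to 58, and in this range Tmem8c was not seen without Myog.

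The promoters of Myog, which marks the committed range, and of Tnnt2 and Actc1, embryonic contractile genes described below with over 100 counts in committed members, are shown because myogenic factors of the Myod1 family bind the E-box (letters CANNTG). Each sequence gives the 250 bases before the RefSeq start site on the gene's strand in GRCm38.p6, with E-boxes in capitals.
Myog, chr1:134289754-134290003, plus strand: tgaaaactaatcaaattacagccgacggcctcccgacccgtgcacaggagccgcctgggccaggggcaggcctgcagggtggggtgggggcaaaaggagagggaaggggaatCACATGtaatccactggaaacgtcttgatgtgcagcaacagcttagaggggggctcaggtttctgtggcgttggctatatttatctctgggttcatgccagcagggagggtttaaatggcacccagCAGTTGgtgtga
Tnnt2, chr1:135836084-135836333, plus strand: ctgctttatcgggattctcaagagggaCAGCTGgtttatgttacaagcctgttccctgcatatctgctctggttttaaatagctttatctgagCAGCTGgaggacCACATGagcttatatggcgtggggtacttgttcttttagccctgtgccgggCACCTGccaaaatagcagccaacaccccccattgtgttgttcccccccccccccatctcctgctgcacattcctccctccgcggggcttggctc
Actc1, chr2:114052876-114053125, minus strand: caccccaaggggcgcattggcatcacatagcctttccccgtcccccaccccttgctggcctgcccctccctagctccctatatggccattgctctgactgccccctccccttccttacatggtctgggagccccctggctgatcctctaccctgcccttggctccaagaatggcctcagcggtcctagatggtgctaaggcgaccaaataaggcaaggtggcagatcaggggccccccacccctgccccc
The Myog window held 2 E-boxes, at 138 and 12 bases before the start, and the Tnnt2 window 4, of which 2 had the letters CAGCTG. The Actc1 window held none. A second RefSeq start of Tnnt2 had 1 E-box in its window. Both strands were searched, and CAGCTG is one of the forms of CANNTG. Of 32851 promoter windows of the same length, 66.2% held at least 1 CANNTG (median 1 match), 3.84% held 4 or more and 13.0% held CAGCTG. A match describes letters and does not show binding. Promoters of Mymk and Mymx were not analysed here.

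Committed members had higher levels than uncommitted ones of the cell cycle inhibitors Cdkn1c and Cdkn1a and of embryonic contractile genes, and lower levels of 9 of 23 stem cell, 8 of 13 imprinted and 10 of 19 basal lamina genes. A gene was counted as higher or lower when it had at least 30 counts in both groups together, its CPM ratio was at least 2-fold and the interval of the ratio did not include 1. Of 5847 genes compared, 4.91% were higher and 9.59% lower in the 28 committed barcodes, with a median log2 ratio of -0.05 over all of them. The 3 commitment genes were left out because they chose the groups. These are genes past a fold between barcodes of 1 library, not a test.

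Cdkn1c, which encodes the cyclin-dependent kinase inhibitor p57 (ENSMUSG00000037664, chr7:143458339-143461050, mm10), stood at 5633 CPM (5414 to 5859) in committed and 576 (528 to 627) in uncommitted members, a log2 ratio of 3.29 (3.15 to 3.43). Its counts per barcode were 0 at the lowest, 47 at the median and 394 at the highest in committed members, and 0, 3 and 53 in uncommitted ones. The ranges overlapped, and 5 committed barcodes held 55.8% of the committed counts. Without the highest barcode of each group the log2 ratio was 3.23. Cdkn1c was at 339 CPM in MuSCs, 204 in fibre-transcript-rich members, 50.7 in myonuclei and 222 in free RNA. Cdkn1a, which encodes the related inhibitor p21, was at 468 CPM in committed and 111 in uncommitted members (log2 ratio 2.08).

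The list of differentiation regulators, which holds Cdkn1c and Cdkn1a as well, went the same way. Of 24 list members compared, 12 were higher and 2 lower (median log2 ratio 1.08). They included the retinoblastoma gene Rb1 (2.76), the muscle transcription factors Mef2c (2.69) and Mef2a (1.27), the RNA-binding protein gene Rbm24 (2.49), Myod1 (2.82; 2.38 to 3.29) and Hes6 (1.63). The lower ones were Id3 (-1.13), an inhibitor of Myod1-type factors, and Itm2a (-1.09). Mef2c was found in 17.9% of committed and 13.4% of uncommitted barcodes, so that its difference rested on few barcodes. Lmnb2, a nuclear lamina gene, was higher (264.6 against 24.1 CPM), as was Mycl (31 counts against 1).

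Embryonic and neonatal sarcomere genes were higher in 6 of 7 compared, with a median log2 ratio of 4.15. The list also counts Chrng and Myl4, which stand in other lists too. Tnnt2, cardiac troponin T, had the largest ratio of the list, with 182 counts against 5 (log2 ratio 6.23, 4.98 to 7.87) and was found in 50% of committed barcodes. Actc1, cardiac actin, stood at 608 against 20.8 CPM (4.87, 4.20 to 5.63), and Tnni1, slow troponin I, at 4.15. Myh3, the embryonic myosin heavy chain, had 31 counts in 10 committed barcodes against 1 count in 1 uncommitted barcode (6.00). Myh8, the neonatal form, had 1 count in committed members. Ttn (3.15) and Neb (3.47), the giant sarcomere proteins, were also higher. Near-identical coding sequences of the actins and of the myosin heavy chains may have divided reads among them, so values of single members of these families are uncertain.

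The adult sarcomere genes did not follow as clearly, because 1 barcode decided them. With all 28 committed barcodes, 16 of 19 listed genes were higher and 0 lower (median log2 ratio 1.83). One barcode of 32506 counts had 34.3% mitochondrial transcripts before the authors' correction, the highest sarcomere share of the range (7.62%), 26 counts of Myog, 16 of Tmem8c and 58 of Gm7325, but 0 of Cdkn1c and Myod1. It held 182 of the 183 Myh4 counts of the committed members. Without it, 5 of 16 adult genes were higher and 2 lower (median -0.06), while 5 of 6 embryonic genes were higher (2.91). Myl1, at 2.68 with all barcodes, stood at -0.19 without the highest barcode of each group.

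**Figure D3:**
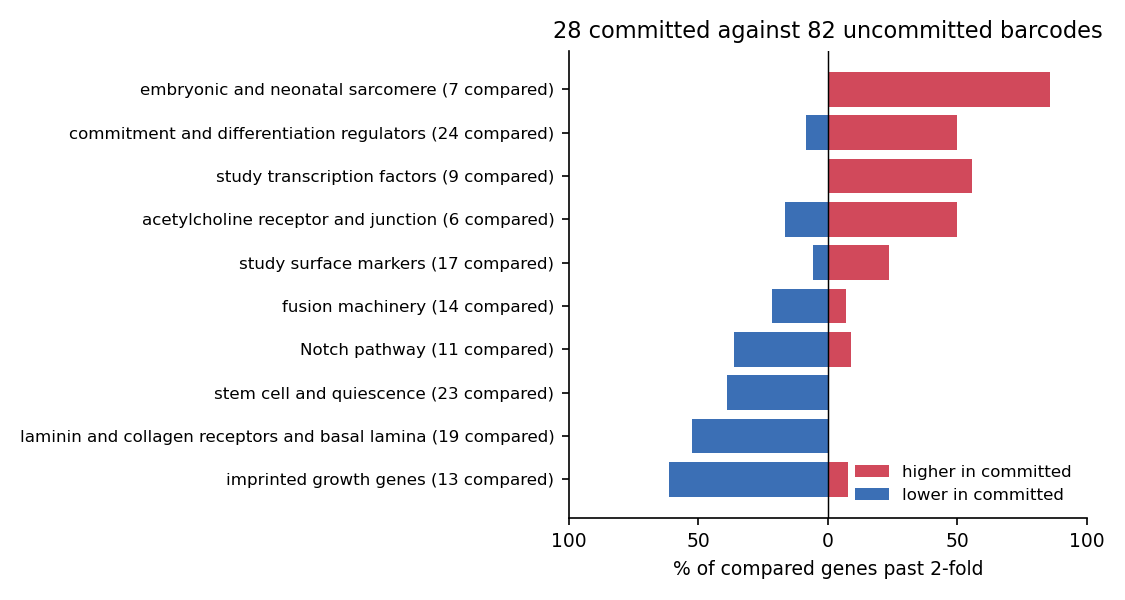
Share of the compared genes of each list that were at least 2-fold higher (right) or lower (left) in the 28 committed than in the 82 uncommitted barcodes, in % of the genes compared, which are given in brackets. Among all 5847 genes the shares were 4.91% higher and 9.59% lower.

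Genes of the stem cell state and of the Notch pathway, which keeps MuSCs undifferentiated, were lower in committed members. Of 23 stem cell genes compared, 0 were higher and 9 lower (median -0.83), among them Pax7 (-1.92), Myf5 (-1.11), Spry1 (-1.59) and Chodl (-2.25). Of 11 Notch genes, the receptor Notch3 (-2.04), the ligand Jag1 (-2.95) and the target genes Heyl (-2.85) and Hes1 (-1.85) were lower, and the ligand Dll1 was higher (25 against 15 counts, 1.78). Notch3 was found in 89.0% of uncommitted and 17.9% of committed barcodes, and Heyl in 84.1% and 25%. Dll1 was found in 57.1% of committed and 15.9% of uncommitted barcodes.

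Basal lamina and matrix receptor genes were lower in 10 of 19 and higher in 0 (median -1.07), with Lama2 at -1.49. Imprinted growth genes were lower in 8 of 13, with Igf2 at -1.76, H19 at -1.67 and Meg3 at -2.55, and Cdkn1c, itself imprinted, was the only one higher. Igfbp5, an IGF-binding protein gene, was at 240 CPM in committed and 1506 in uncommitted members (-2.65), and of 11 genes of the IGF list 3 were lower and 0 higher (median -0.57). Of 16 dissociation and heat shock genes 2 were lower and 0 higher, and of 5 S phase genes none was past 2-fold. Of 2 G2 and M phase genes compared, Ccnb2 was lower. Of 6 acetylcholine receptor and junction genes, the receptor subunits Chrna1 (1.77) and Chrng (2.09) and the junction gene Dok7 (37 counts against 1) were higher, and Agrn was lower (-1.32). Of 14 fusion genes other than Tmem8c and Gm7325, only Jam3 was higher (1.58), and Cdh2 (-1.02), Cdon and Kirrel were lower.

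Lists that the study had drawn from a collection containing this library are not independent evidence of direction. Of its surface markers, 4 of 17 were higher in committed members, namely Fndc5 (3.82), Slc29a1 (2.38), Jam3 (1.58) and Lrrn1 (1.48), and Cdh2 was lower. Of its transcription factors, 5 of 9 were higher (Hes6, Mef2a, Mycl, Purb and Zbtb18) and 0 lower.

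Markers of other cell types moved with this comparison. The list of fibro-adipogenic progenitors (FAPs, the connective tissue cells of muscle) was lower in committed members in 6 of 6 genes and the macrophage list in 7 of 7. Cd74, a class II antigen presentation gene, was at 31.7 against 602 CPM, but 482 of its 550 uncommitted counts came from 1 barcode of 59634 counts, which also held 14 counts of Pax7, 10 of Myf5 and 454 of the 667 uncommitted counts of the macrophage list. Without this barcode only 1 macrophage gene had enough counts to be compared, and it was lower, with the summed list at 249 CPM in uncommitted and 142 in committed members. Without the highest barcode of each group the log2 ratio of Cd74 moved from -4.25 to -1.51. Without every barcode that had at least 3 counts of an immune, endothelial or neural list (18 committed and 56 uncommitted left), the stem cell list had 0 higher and 9 lower of 21, the imprinted list 1 and 8 of 13, and the regulators 8 higher and 3 lower of 21, in place of 12 and 2 of 24. The adult sarcomere list then had 4 higher and 3 lower of 16, and the log2 ratios were 3.77 for Actc1, 2.44 for Neb, 2.31 for Ttn, 2.14 for Myod1 and -4.69 for Tagln. The part of other cell types in these differences was not tested further.

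Committed members also carried Acta2, smooth muscle actin, at 1748 CPM (1627 to 1876), with a median of 19 and a highest value of 169 counts in a barcode. Uncommitted members stood at 357 CPM (log2 ratio 2.29), MuSCs at 153, fibre-transcript-rich members at 4.07 and endothelial barcodes at 5.36. Rgs5 (-4.54), a pericyte marker, and Tagln (2 against 176 counts), a further smooth muscle gene, were lower in committed members. The smooth muscle genes therefore did not go one way.

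Within the committed range, the 7 barcodes that still held Pax7 were set against the 21 that did not. The 7 were deeper (median 23028 against 12049 counts). Myog stood at 553 CPM (438 to 688) with Pax7 and 3775 (3557 to 4002) without it, Tmem8c at 20.7 and 373, and Gm7325 at 20.7 and 655. Myf5 was at 318 and 20.2 CPM and Myod1 at 159 and 545. Cdkn1c was at 705 CPM (575 to 856) with Pax7 and 8030 (7712 to 8359) without, and the embryonic sarcomere list at 228 (157 to 320) and 2299 (2130 to 2478). All 15 barcodes with all 3 commitment genes had Pax7 at 0. The barcode at 7.62% sarcomere share was among the 21 and held 58 counts of Gm7325 and 16 of Tmem8c. The intervals cover counting only and do not carry the spread between barcodes.

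**Figure D4:**
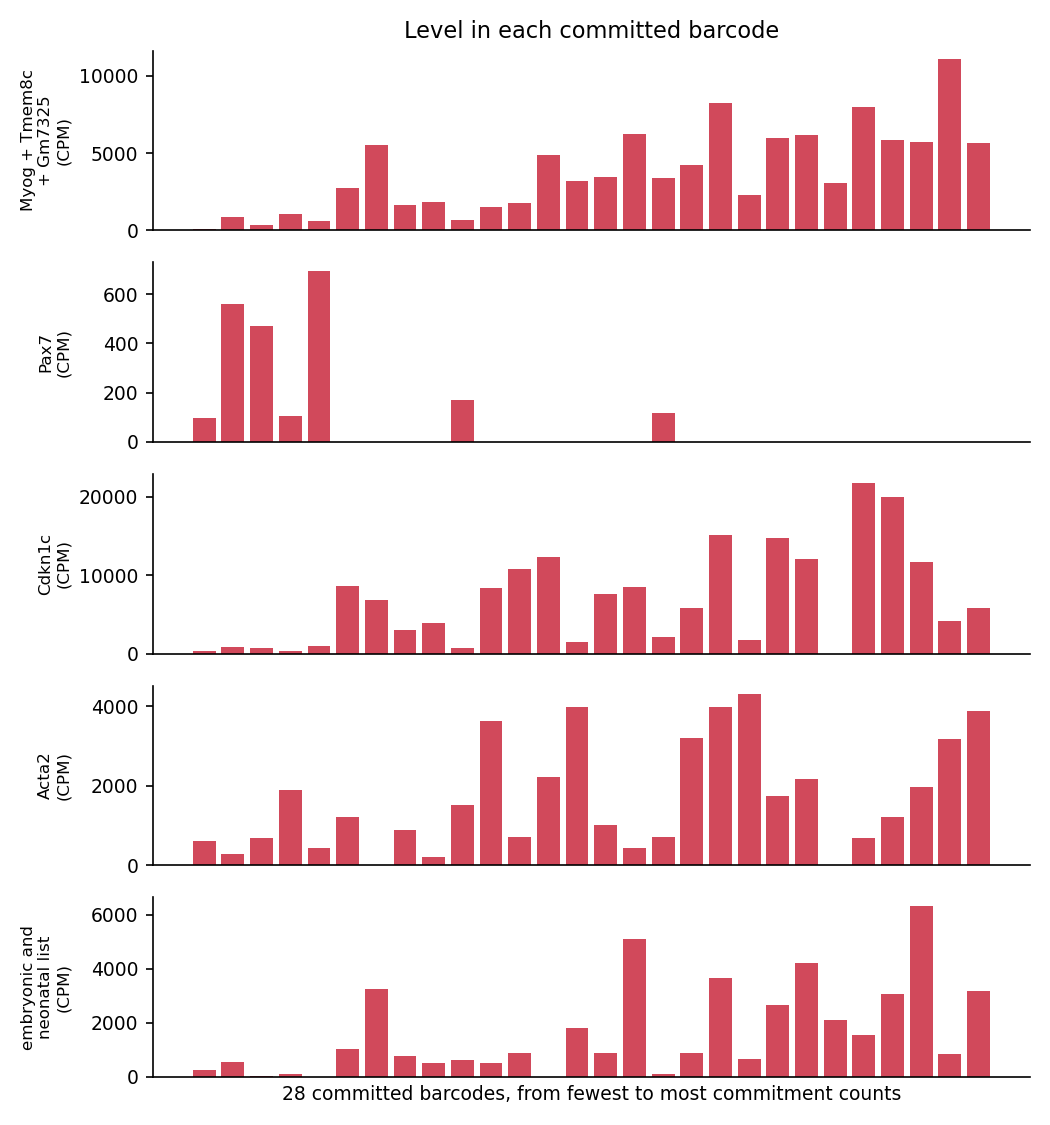
Level in CPM of the 3 commitment genes summed, Pax7, Cdkn1c, Acta2 and the embryonic and neonatal sarcomere list in each of the 28 committed barcodes, ordered from fewest to most commitment counts. Pax7 is found in 7 barcodes, 5 of them the 5 with the fewest commitment counts, and Cdkn1c is at 0 in 1.

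Few members reached 3 counts of the G2 and M phase genes at equal depth. After thinning to 2000 counts, 4 of 175 members had at least 3 counts of the 35-gene list, or 2.29% (0.626 to 5.75%), and 17 (9.71%) did so without thinning. No fibre-transcript-rich member and 0 of 132 MuSCs did so after thinning, but 1 of 94 myonuclei did (1.06%, 0.0269 to 5.79%). Without thinning, 6 of 96 myonuclei (6.25%) and 3 of 137 MuSCs did. The intervals of members and myonuclei overlapped. Of the 4 barcodes, 3 were uncommitted, with 1, 3 and 1 counts of Pax7 and 5, 10 and 8 of Mki67, the proliferation marker. The fourth was committed, with 80 counts of Myog, 31 of Gm7325 and 394 of Cdkn1c, the highest Cdkn1c value of all members, beside 39 counts of the G2 and M list and 3 of Mki67. It held 6 counts of the macrophage list, and whether it holds RNA of more than 1 cell was not tested. At least 3 counts of the S phase list after thinning were found in 8 members, of which 5 were uncommitted, 2 had 1 commitment count and 1 was committed, and in 7 of 132 MuSCs.

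Compared with the other 171 members, the 4 barcodes had 9.81% of 7074 genes higher and 3.6% lower (694 and 255 genes), with the phase lists left out. Median-of-ratios scaling turned the balance, to 320 higher and 402 lower, and without fibre-transcript-rich members 263 were higher and 127 lower. H2afz, a histone variant gene, was at 2361 against 282 CPM (log2 ratio 3.06, 2.78 to 3.34). The sarcomere list was lower in 24 of 28 genes, since no fibre-transcript-rich member was among the 4. Cdkn1c was higher (2.69), but 394 of its 400 counts came from the committed barcode, and without the highest barcodes the ratio was -2.54.

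Few genes separated the uncommitted members from MuSCs. Of 6679 genes, 1.92% were higher and 2.41% lower in the 82 uncommitted members (median log2 ratio 0.03). None of 12 Notch genes, 14 imprinted genes or 16 dissociation and heat shock genes was past 2-fold. The G2 and M list stood at 232 against 81.2 CPM, with Ccnb2, a mitotic cyclin gene, higher among the 2 genes compared (38 counts against 1, found in 9.76% of uncommitted members), and none of 7 S phase genes was past 2-fold. Of 24 stem cell genes, Calcr, the calcitonin receptor of quiescent MuSCs (18.6 against 55.9 CPM, -1.59), and Cd34 (50.3 against 105, -1.06) were lower, and none was higher. Pax7 (-0.37), Myf5 (-0.31) and Chodl (-0.66) did not reach 2-fold, and Cdkn1c stood at 0.76. Myod1 was lower in the uncommitted members (-1.02, -1.53 to -0.52), and the choice of members with 0 commitment counts bears on that value.

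Genes higher in uncommitted members than in MuSCs included Sox9, a transcription factor of connective tissue and other progenitors (236 against 93.2 CPM, 1.34, 0.95 to 1.75), S100a4 (146 against 21.3 CPM, 2.77), the surface marker Lrrn1 (51 against 7 counts, 2.58), fibronectin Fn1 (67 against 20 counts, 1.46) and Ttn (1.33). Acta2 (1.22), Tagln (1.11) and the tendon factor Scx (29 against 9 counts, 1.41) were higher as well. The macrophage list was higher in 7 of 7 genes (730 against 196 CPM summed), but 454 of its 667 uncommitted counts came from the barcode of 59634 counts. Without that barcode 0 of 4 macrophage genes compared were higher (249 CPM), and Myod1 was no longer past 2-fold. The endothelial list was lower in 6 of 6 genes (98.5 against 588 CPM). Without that barcode it was lower in 5 of 5, with the uncommitted members at 24.6 CPM. Without barcodes that held at least 3 counts of an immune, endothelial or neural list, Sox9 stood at 1.36 and S100a4 at 2.58.

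FAP genes were shared with MuSCs. At least 3 counts of the FAP list were found in 82 of 82 uncommitted, 25 of 28 committed and 14 of 54 fibre-transcript-rich members, and in 134 of 137 MuSCs and 74 of 333 endothelial barcodes. The list's level was 3015 CPM in uncommitted members, 3199 in MuSCs, 1296 in committed members, 112 in fibre-transcript-rich members and 12789 in free RNA. At least 3 counts of the macrophage list were found in 46 of 175 members, 25 of them among the 82 uncommitted. The same held for 14 of 137 MuSCs and 35 of 333 endothelial barcodes. No member had 3 counts of the T and NK, B cell or neural lists. Across the whole label 138 of 175 members had at least 3 counts of some other lineage list, and 50 did so when the FAP, smooth muscle and tenocyte lists were left out.

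The 54 fibre-transcript-rich members were set against the myonuclei labels. Adult sarcomere genes made up 40.2% of their summed counts (40.1 to 40.3%), against 34.9% in myonuclei, 0.990% in committed (0.464% without the barcode at 7.62%) and 0.248% in uncommitted members and 3.33% in free RNA. The sarcomere share chose these members, so it is no finding. Mitochondrial transcripts were 0.399% of their uncorrected counts, below the 1.64% of myonuclei, 7.49% of uncommitted and 8.27% of committed members (6.21% without the barcode at 7.62% sarcomere genes) and the 40.0% of free RNA. In the authors' counts corrected for free RNA, the median mitochondrial share over barcodes was 0% in both fibre-transcript-rich members and myonuclei. The pooled corrected shares were 1.8e-05% and 0.534%, and the highest myonuclei barcode stood at 12.8%. The part of free RNA and of depth in the uncorrected difference was not tested. Whether the fibre-transcript-rich barcodes are nuclei, fragments of fibres or cells was not tested.

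**Figure D5:**
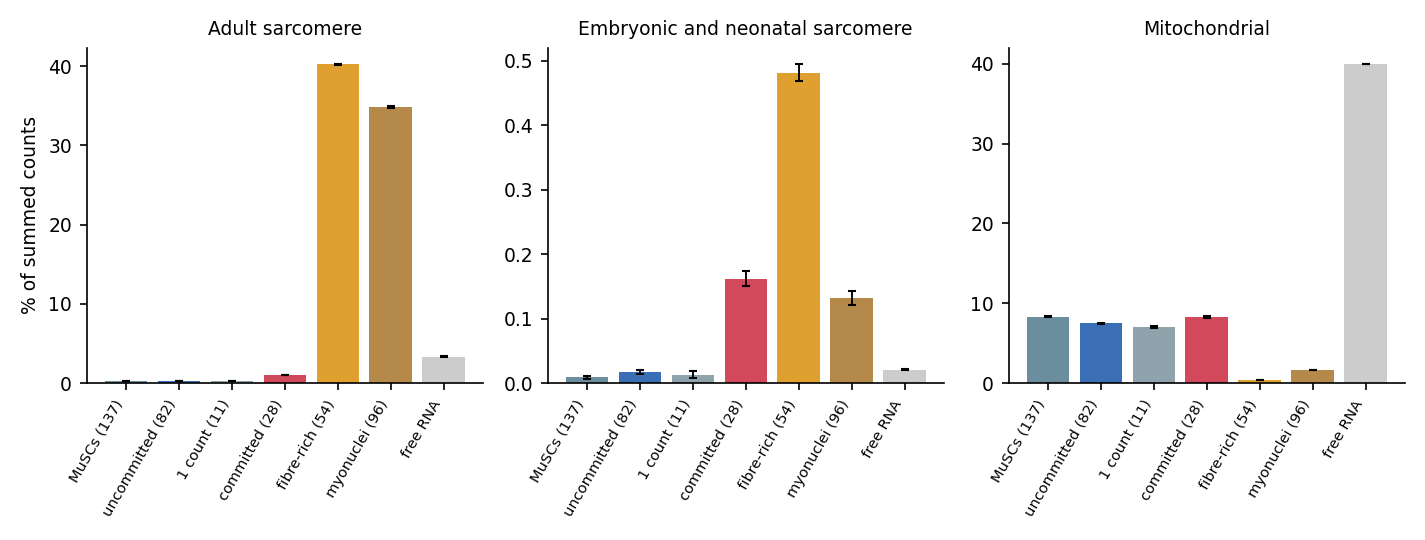
Share of summed counts, in %, in adult sarcomere genes, embryonic and neonatal sarcomere genes and mitochondrial genes for MuSCs, the 4 ranges, both myonuclei labels and free RNA, with 95% binomial intervals and the number of barcodes in brackets. Fibre-transcript-rich barcodes have the highest embryonic and neonatal share (0.482%) and the lowest mitochondrial share (0.399%). Both are shares of uncorrected counts, and free RNA is 40.0% mitochondrial.

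The embryonic and neonatal list was higher in fibre-transcript-rich members than in myonuclei. It took 0.482% of counts against 0.132% in myonuclei and 0.162% in committed members. Of 2934 genes, 2.49% were higher and 6.88% lower than in myonuclei (median log2 ratio -0.06). Of the 7 embryonic and neonatal genes compared, 6 were higher (median 1.85), and of 28 adult sarcomere genes 2, Actn2 and Mybpc1, were higher and 0 lower (median 0.03). Actc1 was at 2487 CPM (2389 to 2588) in fibre-transcript-rich members and 694 (620 to 775) in myonuclei (1.84), and was found in 51 of 54 and 41 of 96 barcodes. Myl4, the embryonic light chain, was at 1081 against 218 CPM (2.31, 2.01 to 2.62), Tnni1 at 601 against 117 (2.36) and Tnnt1, slow troponin T, at 428 against 152 (1.49). Myh8 had 67 counts against 6 (2.37, 1.17 to 3.86), and Tnnt2 47 against 6 (1.85).

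Counts of the embryonic and neonatal list per fibre-transcript-rich barcode were 2 at the lowest, 28 at the median and 973 at the highest, so that every barcode held some. The 2 barcodes above 100000 counts held 973 and 887. Without them 6 of the 7 genes were higher, the share was 0.405%, and Myl4 moved from 2.31 to 1.61. The 2 adult genes were then no longer past 2-fold. With barcodes thinned to 2000 counts, Actc1 was seen in 48 of 54 members and 33 of 94 myonuclei, and Myl4 in 39 of 54 and 26 of 94.

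Further genes higher than in myonuclei were Myod1 (44 against 4 counts, 2.34, with 14 and 7 of the counts in the 2 largest barcodes), Cdkn1c (2.01), Csrp3 (1.84), a muscle LIM protein gene, the actin nucleator Lmod2 (1.69), Maged2 (1.67), Bex1 (1.60) and the small heat shock gene Hspb1 (1.33). Without the 2 largest barcodes Cdkn1c stood at 1.14, Csrp3 at 1.19 and Lmod2 at 1.08. The 5 highest fibre-transcript-rich barcodes held 82% of that group's Cdkn1c counts, with a median of 1 count in a barcode. Free RNA held Cdkn1c at 222 CPM, above the level of both groups, and its part in this ratio was not tested. Scx had 30 counts against 0. H19, an imprinted long noncoding RNA of fetal and regenerating muscle, was found in 54 of 54 members with 2 to 131 counts (1906 against 1388 CPM, 0.46). Myh4, the fast IIb myosin, was at 780 against 1395 CPM.

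Genes lower in fibre-transcript-rich members than in myonuclei included Malat1, a long noncoding RNA retained in the nucleus (chr19:5795690-5802672, mm10), at 21 against 354 counts (-5.19), of which 1 myonuclei barcode held 92. Malat1 was found in 25.9% of fibre-transcript-rich members and 33.3% of myonuclei. Car3, a carbonic anhydrase of muscle fibres, was at 153 against 2245 CPM (-3.88), and Tuba4a, a tubulin gene, at 90.6 against 780 CPM (-3.11). Asb2 (-2.58), Tmsb4x (-1.87), Sar1b (-1.63), Apoe (-1.52) and Lars2 (-1.43; -0.99 without the 2 largest barcodes) followed. Without barcodes with immune, endothelial or neural counts Malat1 stood at -4.39, Lmod2 at 1.07 and Lars2 at -0.92, and without the highest barcode of each group Tmsb4x stood at -2.80. Free RNA held Malat1 at 4398, Tmsb4x at 4916 and Apoe at 9534 CPM, above both groups, and the part of free RNA in these 3 values was not tested. It held Car3 at 156 and Tuba4a at 96.5 CPM, near the level of fibre-transcript-rich members and below that of myonuclei. Of 5 FAP genes 4 were lower, at 112 against 359 CPM for the list. The difference in depth (median 9098.5 against 3631 counts) moves with these values, and its part in them was not tested.

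The label as a whole, compared with MuSCs, mixed these ranges. Of 8223 genes, 9.07% were higher and 15.7% lower in the 175 members, with a median log2 ratio of -0.40. Median-of-ratios scaling turned this balance, to 1339 genes higher and 293 lower in place of 746 and 1293. The 8 largest ratios were all of fibre genes, namely Mylpf (7.31), Myl1 (7.19), Tnnc2 (7.14), Acta1 (6.94), Hspb6 (6.92), Actc1 (6.89), Pgam2 (6.86) and Smpx (6.81). Among the smallest were those of Fabp4 (-3.03; -0.23 without barcodes with immune, endothelial or neural counts), Dpt (-2.31) and Igfbp7 (-2.09). Adult sarcomere genes were higher in 27 of 28 and embryonic ones in 9 of 9, whereas stem cell genes were lower in 12 of 24 and dissociation and heat shock genes in 9 of 16. With fibre-transcript-rich members left out, 245 genes were higher and 231 lower.

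Against myonuclei, 42.9% of 7408 genes were higher and 5.98% lower in the members (median log2 ratio 0.93). Stem cell genes were higher in 23 of 23, Notch genes in 11 of 11 and acetylcholine receptor and junction genes in 6 of 6, and adult sarcomere genes were lower in 18 of 28. The largest ratios were those of Myog (7.80), Pdlim4 (7.01), Tubb2b (6.91), Islr (5.27) and Mt2 (5.26), and the smallest those of Car3 (-5.17), Tuba4a (-4.16), Asb2 (-3.28), Ddit4l (-2.65) and Mb (-2.43), the myoglobin gene.

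Set against all 126 members with 0 commitment counts, fibre-transcript-rich ones included, the 33 members with at least 2 had 3.47% of 6807 genes higher and 10.1% lower (236 and 688 genes). Without the 2 barcodes above 100000 counts, which hold 2 and 3 commitment counts, the balance turned, to 431 higher and 388 lower, and the ratio of Cdkn1c was 3.65. Tnnt2 (3.75), Lmnb2 (3.24), Cdkn1c (3.11), Myod1 (2.47), Slc29a1 (2.23), a nucleoside transporter gene, and Acta2 (2.12) led the higher genes. Tagln (-5.57), Osgin1 (-3.48) and Fibin (-3.17) were among the lowest.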

How the data were processed

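Single-cell 3' libraries (10x Genomics Chromium v3) of 1 mouse at each of 2 time points were analysed. The authors aligned reads to mm10 with Cell Ranger (3.1.0 in the submitters' processing notes, 3.0.1 in the file header) and deposited raw transcript counts per gene and barcode. They also deposited estimated counts corrected for free RNA with SoupX 1.4.5, and a cell annotation made with Seurat (3.1.5 in the notes) on an integrated collection, from which putative doublets had been removed before labelling. No doublet caller was run here.

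Barcodes were kept at 750 genes, 1000 transcripts and at most 30% mitochondrial transcripts in the estimated counts, and all levels were computed from the uncorrected counts. Counts were summed over the barcodes of a group and divided by the group's total (CPM). Ratios carry exact conditional binomial intervals, levels exact Poisson intervals and shares exact (Clopper-Pearson) binomial intervals, all at 95% and for counting error only. No p-value was computed, since each time point had 1 library. A gene was compared at 30 counts over both groups. Signals named as thinned used 2000 counts drawn without replacement from each barcode, and barcodes below 2000 were left out (5 MuSCs, 2 myonuclei, 10 endothelial, 0 members). A count of 0 allows up to 3 counts. Free RNA was read from barcodes of 1 to 100 counts.

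The members and the 26 gene lists (354 genes, 352 of them in the table of 27998) were chosen with earlier results of these data known, and the sarcomere and commitment limits, the division into ranges and the comparisons of ranges after the values were seen. Genes were named by list, and by the 8 largest and 8 smallest ratios per comparison among genes with at least 100 counts in the higher group and a count in 20% of its barcodes, leaving out mitochondrial, ribosomal protein and haemoglobin genes. Genes named within a list or range beyond these, such as Mycl, Dok7 and Igfbp5, were chosen after their values were seen. Some genes that the rule names are not reported here.

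Gene positions are GENCODE vM21 (mm10), which matched 27645 of 27998 gene identifiers, and promoter sequences are RefSeq (GRCm38.p6). In counts simulated for the comparison of members with MuSCs (8207 genes), the summed count of a gene in each group was a Poisson draw. There, 96.3% of intervals held the true ratio, 100% of the 4-fold changes were recovered and 1.10% of unchanged genes were called. The simulation held no spread between barcodes. It checks the calculation of the intervals and gives no rate of false calls for these data. Python 3.11.15, NumPy 2.4.6, SciPy 1.17.1, pandas 2.3.3 and matplotlib 3.10.9 were used.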

Additional observations from a re-analysis of the deposited data

Results flagged for a closer look

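Signal of commitment was also found outside the annotation. At day 7, 477 barcodes that Cell Ranger called as cells passed the same limits but have no entry in the annotation. Of these, 8 held at least 2 counts of Myog, Tmem8c and Gm7325 (1.68%, 95% interval 0.727 to 3.28%), against 0 of 333 endothelial barcodes. In the annotation, 33 of 175 members and 2 of 137 MuSCs did so, among 3196 typed barcodes kept. The share over all typed barcodes is not given here, so no difference from it is claimed. All 8 had less than 10% adult sarcomere transcripts, their median depth was 2879 counts, and 4 held fewer than 3 counts of each immune, endothelial and neural list. Pax7 was found in 34 of the 477 (7.13%). The authors removed putative doublets before annotation, and the part of that step in these 8 barcodes was not tested.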

How the results depend on the processing

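No paired analysis was possible because each time point had 1 library. Limits, scalings and counts were varied one at a time. The settings that leave out barcodes with immune, endothelial or neural counts, the barcode with most macrophage counts, those above 100000 counts or the fibre-transcript-rich ones, and every comparison of ranges, were chosen after seeing the data. Of the recomputed log2 ratios of single genes (in the comparisons of the whole label, of members with at least 2 commitment counts against other members and of the 4 barcodes with G2 and M counts), 472 lay within the interval of the reported ratio, 212 outside it and 7 changed sign; leaving out the highest barcode of each group is not among these settings. A shallow barcode can lack Myog or Pax7 by depth alone, and a count from 1 library cannot separate mouse, time and library.

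Members with commitment counts (18.9%) were 28% at 1 count, 12.6% after thinning and 2.70% without members holding any other lineage list, a setting that leaves only fibre-transcript-rich members. Members with G2 and M counts (2.29%) were 9.71% unthinned and 0% in that setting. Among the 33 members with at least 2 commitment counts the share (3.03%) was 0% there and 0% without immune, endothelial or neural barcodes. Members with another lineage (78.9%) were 87.4% under stricter limits, 100% without fibre-transcript-rich members, 70.9% in SoupX values, 72.0% at 5 counts and 28.6% without FAP, smooth muscle and tenocyte lists. The adult sarcomere share (16.2%) was 15.4% under stricter limits, 39.4% without other-lineage members, 17.2% without immune, endothelial or neural barcodes, 12.7% without the largest barcodes, 0.469% without fibre-transcript-rich members, 16.6% in SoupX values and 0.311% as a median over barcodes.

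Genes higher than in MuSCs (746) were 245 without fibre-transcript-rich members, 1339 with median-of-ratios scaling and 378 at 4-fold. Lower genes (1293) were 2924 without other-lineage members, 231 without fibre-transcript-rich members, 293 with median-of-ratios scaling, 475 at 100 counts and 97 at 4-fold. Genes higher than in myonuclei (3180) were 1560 under stricter limits, 44 without other-lineage members, 1620 at 100 counts and 972 against IIx alone. Lower genes (443) were 168 without other-lineage members, 802 without fibre-transcript-rich members, 188 with median-of-ratios scaling, 696 at 1 count, 254 at 100 counts, 72 at 4-fold and 833 with CPM outside the sarcomere list. In committed against other members, higher genes (236) were 431 without the largest barcodes, 373 in SoupX values, 500 as means over barcodes, 410 at 1 count, 88 at 100 counts and 37 at 4-fold. Lower genes (688) were 294 without immune, endothelial or neural barcodes, 388 without the largest barcodes, 223 at 100 counts and 168 at 4-fold. For the 4 barcodes with G2 and M counts, higher genes (694) were 440 without immune, endothelial or neural barcodes, 263 without fibre-transcript-rich members, 320 with median-of-ratios scaling, 441 at 100 counts and 223 at 4-fold. Lower genes (255) were 146, 127 and 402 in the first 3 of these settings and 155 at 4-fold.

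Committed against uncommitted members gave 191 higher (of 287) and 333 lower genes (of 561) without immune, endothelial or neural barcodes, and 72 and 151 at 4-fold. Uncommitted members against MuSCs gave 75 (of 128) and 71 (of 161), and 16 and 36. Fibre-transcript-rich members against myonuclei gave 46 higher (of 73) in that setting, 114 as means over barcodes, and 11 higher and 32 lower (of 202) at 4-fold. Without other-lineage members the log2 ratio turned for Myog against MuSCs (-1.85) and for Islr (-1.47), Acta2 (-2.47) and Meg3 (-0.47) against myonuclei. Without immune, endothelial or neural barcodes it turned for H2-Eb1 (0.13) and H2-Ab1 (0.31) in committed against other members and for Cdkn1c (-1.91) in the 4 barcodes with G2 and M counts. In the same setting, Myl1 (-2.39), H2-Aa (0.22), H2-Eb1 (0.32) and H2-Ab1 (0.48) turned in committed against uncommitted members, and H2-Eb1 (-0.60), H2-Aa (-0.37), H2-Ab1 (-1.15), Lyz2 (-0.53) and Fabp4 (0.27) in uncommitted members against MuSCs. Without the highest barcode of each group, Myl1 (-0.19) and Cdkn1c (-2.54, in the 4 barcodes) turned. Fewer barcodes entered each of these settings, and the cause of the changes was not tested.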

Other observations

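Among the 28 committed barcodes, the 19 that held Gm7325 were set against the 9 that did not, at median depths of 12049 and 13217 counts. Actc1 stood at 819 CPM with Gm7325 and 132 without it, and was found in 14 of 19 and 2 of 9 barcodes. Cdkn1c was at 6618 and 3413 CPM, Myog at 3245 and 1537, Acta2 at 1959 and 1273 and Pax7 at 16.3 and 280. Myh3 had 28 counts with Gm7325 (91.4 CPM) and 3 without (22.1 CPM). The barcode at 7.62% sarcomere share held 8 of those 28 counts. The barcodes were divided after their values were seen, so these are descriptions.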
